A study of Mus musculus with 12 samples.

Results

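The mRNA of the mouse proepicardium (PE) at embryonic day (E) 9.5 was described by itself, from the 3 PE libraries among the 12 samples of the series. The series holds mRNA and small RNA of PE and of embryonic epicardium (EE) at E10.5, and the 3 mRNA libraries of PE were taken by their labels, with no use of their values. They are named PE1, PE2 and PE3 here, and values of a gene are given in that order. The embryos were of the strain that the labels name Wt1Cre-EGFP and the paper describes as heterozygous for a GFP allele of Wt1, and no treatment was given. PE was dissected by hand rather than sorted, at least 5 embryos were pooled for a sample, and the labels call the 3 samples distinct. Each library is therefore an average over pooled embryos and over all cells that the dissection took.

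The proepicardium is a transient outgrowth of mesothelial cells on the septum transversum, at the venous pole of the heart and next to the liver bud. Its cells cross to the bare surface of the heart and spread there as the epicardium, which later gives rise to fibroblasts and mural cells of the coronary vessels. Bmp signals from the liver bud and heart, together with Fgf signals, are known to take part in its formation, and the transcription factors Wt1, Tcf21 and Tbx18 are its usual markers.

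Libraries were made with SMART-Seq v4 amplification and Nextera XT tagmentation, which do not mark the strand. The 3 libraries held 23054165, 25206684 and 25814015 counts. Levels of a gene are given as CPM, its share of the library's gene counts scaled to a total of 1000000, for comparison among libraries, and as TPM, the same share after each count is divided by the gene's exon length, for comparison among genes. Where a TPM is followed by values in parentheses, these are the CPM of the libraries. Of 55228 genes listed, 28973 had a count in at least 1 library, 20725 had one in each library and 12713 reached 1 CPM in each. A count of 0 allows a level of up to 0.130, 0.119 and 0.116 CPM in PE1, PE2 and PE3, a limit of 3 counts that covers counting error alone. Genes of the protein-coding class took 98.6% to 98.7% of the counts. With 1 group and no contrast, no test was made, and errors are the SD over the 3 libraries.

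PE1 stood apart from the other libraries. Across genes at 1 CPM or more, Pearson's r of log2(CPM + 1) was 0.991 between PE2 and PE3, 0.965 between PE1 and PE2 and 0.972 between PE1 and PE3. On that scale 59 genes differed by at least 2-fold between PE2 and PE3, against 882 between PE1 and PE2 and 700 between PE1 and PE3. The spread between PE2 and PE3 still exceeded counting error, with a median variance 7.54 times that of counting alone. The genes behind this split are described at the end, and the levels of most genes are given for every library.

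Some genes were listed with few or no counts, and repeated sequence in the exons was looked at. Each gene's exons were cut into 50-base words, taken every 10 bases, and each word was looked up in the whole GRCm38 genome on both strands. Of 12687 genes at 1 CPM or more with words, 792 (6.24%) had more than 20% of their words at more than 1 place. Among transcription factors the share was 3.03%, among ligands 2.33% and among receptors 0.546%, while 36 of 83 ribosomal protein genes (43.4%) exceeded it. Words from coding sequence are printed for 4 genes, chosen after their values were seen, to show what such a read looks like. For each gene the word shown is the one found at the most places, and capitals mark words that the genome holds at more than 1 place.
mt-Co3 (GRCm38 chrM:8607-8656, plus strand): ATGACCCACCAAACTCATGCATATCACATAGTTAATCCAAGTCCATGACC
mt-Nd1 (GRCm38 chrM:2751-2800, plus strand): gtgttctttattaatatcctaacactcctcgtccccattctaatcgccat
Gapdh (GRCm38 chr6:125162905-125162954, minus strand): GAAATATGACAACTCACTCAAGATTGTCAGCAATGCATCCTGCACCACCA
Tpi1 (GRCm38 chr6:124811276-124811325, minus strand): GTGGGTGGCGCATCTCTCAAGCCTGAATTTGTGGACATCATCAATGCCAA

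The word of mt-Co3, a mitochondrially encoded subunit of cytochrome c oxidase, was found at 2 places, and all 74 of its coding words were repeated in the genome. Mt-Co3 was listed at 0 counts in every library, as were mt-Co2, mt-Atp6, mt-Atp8 and mt-Nd4l, and each of these 5 genes had 100% repeated words. In contrast, none of the 91 coding words of mt-Nd1, a subunit of complex I, was repeated, and mt-Nd1 was at 2506, 2210.2 and 2847 CPM. Mt-Nd3, with 96.7% repeated words, lay between them at 1.91, 1.27 and 1.67 CPM. The level did not follow the share of repeated words in every gene. Mt-Co1 and mt-Nd4, with 51.3% and 62.4% repeated words, had mean levels of 799 TPM and 829 TPM, whereas mt-Nd5 and mt-Nd6, with 7.3% and 0%, were lower at 601 TPM and 517 TPM.

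The nuclear genes showed the same contrast in the actins. Actg1, which encodes cytoplasmic gamma-actin, had 88 of 106 coding words repeated and was listed at 4.6, 5.44 and 5.77 CPM. Actb, which encodes beta-actin and is expressed beside it in most cells, had 13 of 89 coding words repeated and was at 5511, 6160.3 and 5368 CPM. Gapdh, a glycolytic enzyme, had 73 of 75 coding words repeated, the printed one at 80 places, and was at 322, 372 and 328 CPM. Tpi1, another glycolytic enzyme, had 12 of 57 repeated and was at 2170.2, 2429 and 2315 CPM. The levels of genes rich in repeated words are thus uncertain here. Whether reads with several matches were left out of the counts is not given in the sources used here, and the part of the repeats in these levels was not tested. Since the strand was not marked, reads from overlapping genes can also not be told apart. Among genes named below, another gene's exons cover 63.5% of the exon bases of Trf, 64.5% of Igf2, 46.7% of Bmp5, 36% of Mab21l2, 33.4% of Ramp2, 30.7% of Cdkn1c, 29.6% of Apela and 20.6% of Tbx18.

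Counts were spread over many genes. The most counted gene took 0.778%, 0.906% and 0.967% of the counts, and the 10 most counted together took 4.02% to 4.35%. The 100 most counted genes held 16.7%, 17.1% and 17.2%, a mean of 17.0% ± 0.237, and the 1000 most counted held 53% to 53.7%. To reach 50% of the counts took 877 genes in PE1, 843 in PE2 and 846 in PE3, and to reach 90% took 4962, 4861 and 4827. Between 80 and 90 genes a library exceeded 1000 CPM. PE1 was the least concentrated library at each of these marks, by a small margin. The libraries ranked the same genes high. Of the 20 genes with the highest CPM in a library, 14 were in the top 20 of all 3, and of the 1000 highest, 823 were.

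**Figure D1:**
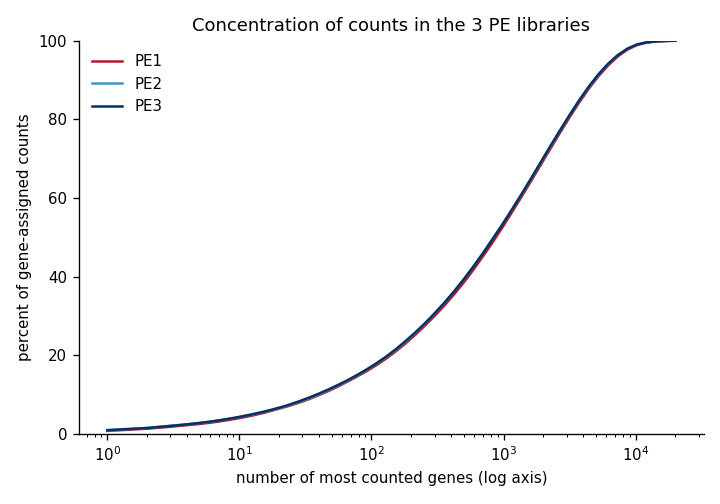
Share of gene-assigned counts (percent, y axis) held by the most counted genes, against the number of such genes (x axis, log scale), with 1 line for each PE library. The 3 lines nearly coincide, and 100 genes hold 16.7% to 17.2% of the counts.

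Embryonic globins were 3 of the 5 genes with the highest mean TPM. Hbb-y, the beta-like globin of primitive red cells, had the highest mean, 10308 ± 4344 TPM (SD, n = 3), and was at 3071, 2279 and 1101 CPM. Hbb-bh1, another embryonic beta-like globin, was at 8024 ± 3207 TPM (2328, 1649 and 888). Hba-x, the embryonic alpha-like zeta globin, was at 6668 ± 3161 TPM (2451, 2748 and 939). Each of the 3 globins was lowest in PE3, and Hbb-y and Hbb-bh1 were highest in PE1, so their place in the order differed by library. In PE3 alone, mt-Nd1 and Ldha exceeded all 3 globins by TPM.

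Metabolic genes formed a steadier group. Ldha, lactate dehydrogenase A, was the gene with the most counts in each library, at 7782, 9062 and 9667 CPM, and ranked 2 by mean TPM at 8239 ± 1302 TPM. Aldoa, the glycolytic aldolase, was at 3525 ± 442 TPM (3051, 3499 and 3436). Tpi1 was at 2579 ± 277 TPM (2170.2, 2429 and 2315). These 3 enzymes were lowest in PE1 and differed less among libraries than the globins did. Mt-Nd1 and mt-Cytb, the mitochondrial cytochrome b gene, ranked 3 and 10, with mt-Cytb at 5098 ± 1428 TPM (1602, 1634 and 2429). Cox6b1, a nuclear subunit of cytochrome c oxidase, was at 2543 ± 394 TPM (737, 521 and 513) and was highest in PE1.

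Contractile and cytoskeletal genes were also among the 20. Myl7, the atrial regulatory myosin light chain, was at 6326 ± 1118 TPM (1140.3, 1077 and 1419). Actc1, cardiac alpha-actin, was at 4464 ± 1640.0 TPM (1535, 2376 and 3063), and Actb at 6525 ± 713 TPM (5511, 6160.3 and 5368). Tubb5, a beta-tubulin, was at 2773 ± 325 TPM (2832, 3244 and 2909.8). In CPM the cardiac genes Myl7 and Actc1 were highest in PE3, whereas Actb and Tubb5 were highest in PE2.

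The remaining genes of the 20 were chaperones, a growth factor and small regulatory proteins. Hsp90ab1, a cytosolic Hsp90 chaperone, was at 5389 ± 600.1 TPM (4932, 5576 and 5229.9), and Hspa5, the endoplasmic reticulum chaperone BiP, at 2522 ± 482 TPM (3095, 3203 and 4077). Mdk, the heparin-binding growth factor midkine, was at 5129 ± 367 TPM (2469, 2212 and 1969). Tceal9 was at 3275 ± 313 TPM (1078, 1049.6 and 1183), the nucleic acid binding protein gene Cnbp at 2928 ± 297 TPM (2750.3, 2848 and 3064) and the calmodulin gene Calm2, with 27% repeated words, at 2843 ± 256 TPM (1365, 1251 and 1455). Bex3 was at 3114 ± 581 TPM (1272, 809 and 903) and had the widest range of these 7 genes in CPM, 1.57-fold. When the longest transcript replaced the exon length, 15 of the 20 genes were named again, and with CPM in place of TPM 13 were.

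**Figure D2:**
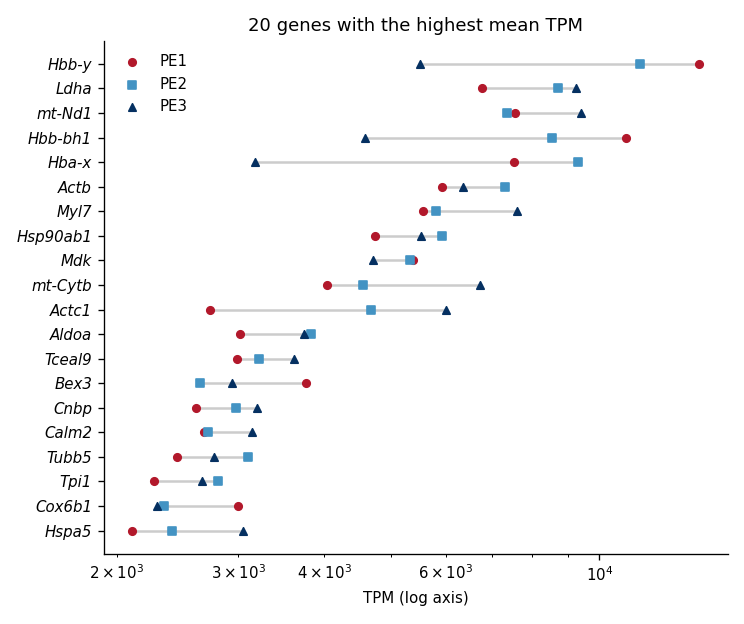
Level in TPM (x axis, log scale) of the 20 genes with the highest mean TPM, ordered by that mean, with a point for each PE library and a grey line from the lowest to the highest. The globins and Actc1 have the longest lines, and Mdk has a short one.

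Levels of marker genes were then read. Of 27 epicardial and mesothelial markers, 23 reached 1 CPM in each library, and together they took 0.215%, 0.208% and 0.184% of the counts. Of all 21849 protein-coding genes, 11892 reached it. So did 23 of 24 hepatoblast and 18 of 20 endothelial markers, but only 5 of 20 neural and 2 of 18 somite and limb markers. The count of markers that passed therefore does not check the label. Wt1 (GRCm38 chr2:105126529-105173616, plus strand), a zinc finger factor of mesothelium, was at 20.2, 17.1 and 20.5 CPM. Tcf21 (chr10:22817281-22820174, minus strand), a basic helix-loop-helix factor of epicardial progenitors, was at 122, 83 and 100.2 CPM. Tbx18 (chr9:87702800-87731260, minus strand), a T-box factor of epicardium and sinus venosus, was at 72.3, 119 and 154 CPM. All 3 were present in every library. Tcf21 was highest in PE1, Tbx18 was lowest there, and Wt1 varied by 1.2-fold.

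The keratin and uroplakin genes named here had higher mean TPM than these factors, but Krt19, Upk3b and Upk1b overlapped Tcf21 within their SD. Krt18, a keratin of simple epithelia, was at 1534 ± 244 TPM and 764, 805 and 587 CPM. Krt19 was at 141 ± 11.9 TPM and varied little, at 83.5, 89.5 and 82.4 CPM. Krt19 also stood in the list of foregut markers, and in bulk tissue the keratin levels cannot be assigned to mesothelium alone. Upk3b and Upk1b, uroplakins of mesothelial surfaces, were at 169 ± 26.2 TPM and 164 ± 42.1 TPM. Upk3b was highest in PE1 at 239.8, 187 and 159.6 CPM, while Upk1b was highest in PE3 at 97.7, 95 and 140.0 CPM. Krt8, the partner of Krt18, was at 453 ± 88.1 TPM (358, 295 and 219.8), with 51.6% of its words repeated. Bnc1, a zinc finger factor of mesothelium, was at 29.3, 28.2 and 26.3 CPM.

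Markers of the septum transversum and sinus venosus, from which the proepicardium arises, were also detected. All 20 of them reached 1 CPM in each library, and they took 0.0701%, 0.0709% and 0.0740% of the counts. Tbx5, a T-box factor of the venous pole, was at 72.5, 102 and 97.3 CPM. Gata4, a zinc finger factor needed for the proepicardium to form, was at 53.3, 71.1 and 63.6 CPM. Hand1 was at 63.7, 23.7 and 26.5 CPM and was highest in PE1, as was Osr1 at 35.4, 12.4 and 21.4 CPM. Mab21l2, a gene of the septum transversum, was at 48.6, 58.6 and 63.2 CPM.

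Marker lists of 4 other cell types took a larger share of the counts than the epicardial list did. These are levels in bulk tissue, in which fewer cells of a type and less RNA per cell cannot be told apart. The lists also differ in size, and a single gene can hold much of a sum, as Acta2 does among smooth muscle and fibroblast markers. The shares therefore do not rank cell types. Cardiomyocyte markers took 0.572%, 0.701% and 0.884%, and all 19 that reached 1 CPM were highest in PE3. Erythroid markers took 0.848%, 0.733% and 0.334%, and none of the 17 that reached 1 CPM was highest in PE3. Hepatoblast markers took 0.999%, 0.531% and 0.594%, and 17 of the 23 that reached 1 CPM were highest in PE1. Over all 12713 genes at 1 CPM or more in each library, 38.6% were highest in PE1 and 26.3% in PE3. The lists thus moved in different directions across the libraries, while endothelial markers, at 0.0805%, 0.0795% and 0.0802%, differed by little.

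Within the cardiomyocyte list the levels ran over a wide range. Tnni1, the slow skeletal troponin I of embryonic heart, was at 1329, 1359 and 1579.9 CPM. Tnnc1, troponin C, was at 489 ± 103 TPM (145, 152 and 198) and Myl4, an atrial essential light chain, at 419.7 ± 65.5 TPM (562, 629 and 701). Mybpc3, cardiac myosin binding protein C, was at 139, 294 and 316 CPM, with PE1 lowest by at least 2-fold. In contrast, Nkx2-5, a homeobox factor of cardiac chamber muscle that was singled out after its values were seen, had 5, 1 and 1 counts, or 0.217, 0.0397 and 0.0387 CPM. These levels are near the limit that a count of 0 allows. Shox2, a homeobox factor of sinus venosus muscle, was at 11.1, 15.5 and 19.4 CPM.

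Among hepatoblast markers, Afp, the fetal plasma protein alpha-fetoprotein, was at 3110.2, 1560.4 and 1934 CPM. Apoa2, an apolipoprotein of high-density lipoprotein, was at 558, 205 and 199 CPM. Ttr, transthyretin, was at 472, 390.3 and 356 CPM, and Trf, transferrin, at 1822, 774 and 895 CPM. Serpinf2, which encodes antiplasmin, was at 735, 592 and 547 CPM. Each of the 5 was highest in PE1, by less for Ttr and Serpinf2 than for Afp, Apoa2 and Trf. Foregut markers moved otherwise, at 0.0594%, 0.0868% and 0.0768% of counts, and their highest member Cldn6, a claudin of embryonic epithelia, was at 283, 440.4 and 389.8 CPM. Foxa3, a forkhead factor of gut endoderm and liver, was at 38.2, 63 and 53.5 CPM.

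The endothelial list had the steadiest sum, but not every gene in it was steady. Egfl7, a secreted endothelial protein, was at 169.6, 140.4 and 141 CPM, Esam, an endothelial adhesion molecule, at 114, 107 and 112 CPM, and Emcn, endomucin, at 63.4, 64 and 81.8 CPM. Tek, the angiopoietin receptor Tie2, differed more, with PE1 lowest at 118, 198 and 185 CPM. Cldn5, a claudin of endothelial junctions singled out after its values were seen, was highest in PE1, at 14.7, 1.39 and 1.74 CPM. Smooth muscle and fibroblast markers took 0.381%, 0.358% and 0.362%. Acta2, smooth muscle alpha-actin that embryonic heart muscle also expresses, was the highest of them at 1514, 1713 and 2077 CPM, and Lum, the matrix proteoglycan lumican, was at 329, 108 and 102 CPM, highest in PE1.

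Lists of tissues outside the dissected region were low. Neural markers took 0.00623% to 0.00953% of the counts, and 7 of the 20, among them Sox1, Pax7, Foxd3 and Olig2, had no count in any library. Their highest member was Tubb3, a beta-tubulin of neurons, at 30.3, 40.5 and 60.4 CPM, with 10.7% of its words repeated. Somite and limb markers took 0.00119% to 0.00187%, and Pax1, Myf5, Myod1 and Uncx had no count. Macrophage and other blood markers took 0.0105%, 0.00367% and 0.00228%, and 5 of 21 reached 1 CPM in each library. Lyz2, lysozyme of myeloid cells, was at 30.4, 6.74 and 0.852 CPM, and Pf4, a platelet chemokine also found in embryonic macrophages, at 26.9, 6.35 and 3.22 CPM. Both were highest in PE1 and lowest in PE3, as the whole list was.

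**Figure D3:**
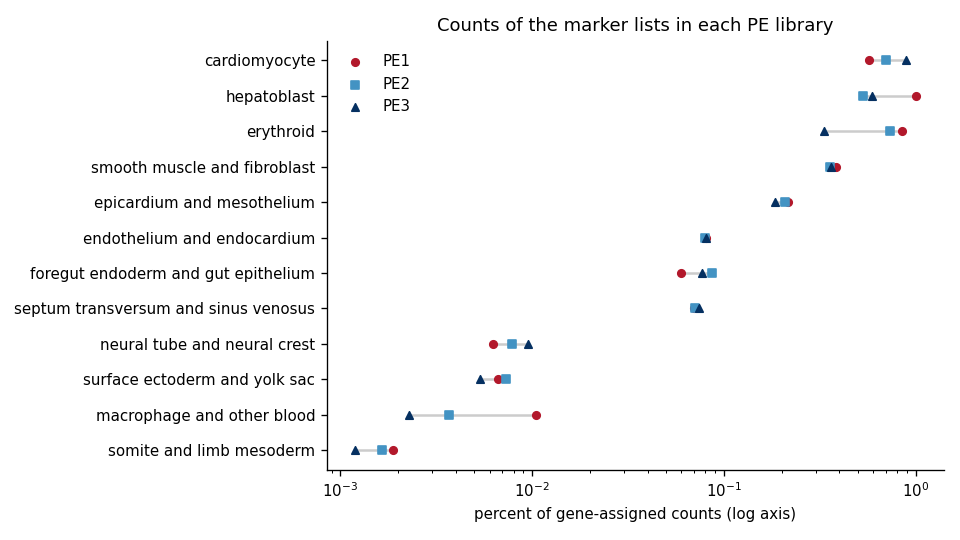
Summed counts of each marker list as a percent of all gene-assigned counts (x axis, log scale), with a point for each PE library and a grey line over their range, ordered by mean. Cardiomyocyte, hepatoblast and erythroid markers lie between 0.334% and 0.999%, epicardial markers between 0.184% and 0.215%, and somite markers between 0.00119% and 0.00187%.

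Of 825 genes in 23 transcription factor families, 422 reached 1 CPM in each library, 229 reached 5 TPM in each and 106 had no count. Of all 21849 protein-coding genes, 11892 reached 1 CPM in each library, a share near that of the factors. The like count over all genes at 5 TPM is not given here. All 8 Smad genes and all 7 genes placed in the GATA list by symbol reached 1 CPM in each library. All 11 genes of the Meis, Pbx, Pknox and Tgif homeobox group also reached 1 CPM in each library. Of 39 Hox genes 6 did, of 17 T-box genes 6, and none of the 9 Pax, 14 Nkx or 6 Iroquois genes. The list of zinc finger factors did not include the KRAB type.

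The factors with the highest TPM were the Id genes, whose products bind basic helix-loop-helix factors and keep them from DNA, and which are known targets of Bmp signaling. Id3 was at 1702 ± 105 TPM (1131, 942 and 914), Id2 at 1525 ± 263 TPM (1041, 1235 and 1335) and Id1 at 344 ± 131 TPM (196, 83.6 and 116). By TPM, Id3 and Id2 exceeded every other factor in each library. Id1 was highest in PE1 and lowest in PE2, whereas Id2 was lowest in PE1.

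Next came factors that most tissues express. Peg3, an imprinted zinc finger gene, was at 313 ± 92.7 TPM (959.9, 1591 and 1485), lowest in PE1. Trp53, the tumor suppressor p53, was at 283 ± 29.5 TPM (355, 396 and 365), Tsc22d1, a leucine zipper protein, at 249 ± 27 TPM (689, 775 and 719), and Klf6, a Krueppel-like factor, at 222 ± 20.2 TPM (304, 327 and 319). Atf4, the factor of the integrated stress response, was at 192 ± 11.9 TPM (150.3, 152 and 139), and Myc, a driver of growth and of ribosome production, at 119 ± 5.08 TPM (118, 97.8 and 102). In CPM these factors other than Peg3 varied by at most 1.2-fold among libraries.

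Factors with a known role in this tissue stood within the first 25. Tcf21 was the twelfth factor by mean TPM at 132 ± 19 TPM. Snai2, a zinc finger repressor of epithelial-to-mesenchymal transition, was at 97.6 ± 30.2 TPM (90.5, 43.7 and 60.8), highest in PE1. Tbx18 was at 76 ± 29.9 TPM (72.3, 119 and 154). Tead2, a DNA-binding partner of Yap in the Hippo pathway, was at 84.5 ± 15.4 TPM (118, 153 and 123). Wt1 lay far lower per length, at 9.55 ± 0.847 TPM (20.2, 17.1 and 20.5). Tcf21 and Tbx18 exceeded Wt1 in every library, on this scale and in CPM.

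Other families had a few members above the rest. Among GATA genes Gata4 was at 49.6 ± 9.46 TPM, Gata6 at 27.2 ± 2.04 TPM (56.4, 56.7 and 59.5) and Gata5 at 15.3 ± 1.53 TPM (17, 17.4 and 14.4), while Gata1, a factor of red cells, was at 10.7, 17.1 and 5.69 CPM and was likewise lowest in PE3. Among Hox genes Hoxb1 was at 23.6, 32 and 26.1 CPM, Hoxc5 at 33.5, 11.4 and 6.59 CPM and Hoxb5 at 11.3, 6.15 and 4.84 CPM. Paralog group 1 had the largest sum, 48.5 TPM. Groups 2, 3, 4 and 5 summed to 2.93, 1.06, 7.80 and 26.8 TPM, and no group from 6 to 13 exceeded 1.54 TPM. Nr2f2, an orphan nuclear receptor of venous and atrial cells, led its family at 38.9 ± 6.16 TPM (96.8, 108 and 121), and Meis1, a cofactor of Hox proteins, was at 156, 201 and 189 CPM.

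Of 215 ligand genes, 96 reached 1 CPM in each library, against 11892 of all 21849 protein-coding genes. In addition, 52 ligands reached 5 TPM and 23 had no count. Mdk led by a wide margin at 5129 ± 367 TPM. Mif, a cytokine that macrophages also make, followed at 2046 ± 162 TPM (569.6, 483 and 442), with 45.5% of its words repeated. Ptn, pleiotrophin, the relative of midkine, was at 541 ± 119.7 TPM (809, 500.1 and 521), highest in PE1. Wnt2, a Wnt ligand of the venous pole and lung mesoderm, was at 533 ± 116 TPM (313, 415 and 437). Adm, the vasodilator peptide adrenomedullin, was at 253 ± 67.4 TPM (101, 138 and 159). Wnt2 and Adm were lowest in PE1.

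Among the 25 Bmp, Gdf and Nodal ligands, 8 reached 1 CPM in each library. Bmp4 led at 217 ± 63.7 TPM (112, 179 and 181), and the next member by TPM was Gdf2, which encodes Bmp9, a ligand made in liver, at 20.9 ± 2.69 TPM (24.5, 17.1 and 19.6). Bmp5 was at 10.7, 18.8 and 16.1 CPM, Bmp7 at 13.7, 14.9 and 16 CPM and Bmp2 at 6.42, 9.12 and 6.28 CPM. All 3 lay well below Bmp4. Mstn, myostatin, was at 23.2, 9.64 and 19.3 CPM, and Bmp10, a ligand of embryonic heart muscle, was at 3.73, 6.78 and 7.75 CPM. Bmp4, Bmp5, Bmp7 and Bmp10 were lowest in PE1, and Gdf2 and Mstn were highest there.

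Of the 18 Fgf ligands, 3 reached 1 CPM in each library. Fgf10 was at 17.7, 37.5 and 40.4 CPM, with PE1 below both other libraries, and Fgf5 was at 17.9, 22.5 and 22.4 CPM. Fgf9 was at 1.56, 2.34 and 2.09 CPM, and Fgf7 at 0.954, 1.07 and 1.12 CPM. The remaining Fgf genes lay under 1 CPM in at least 1 library. Per length Fgf5, at 25.8 ± 4.55 TPM, was above Fgf10, at 21.6 ± 9.19 TPM, in each library, by the least in PE3.

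Vascular and other ligands were more widely expressed. In the Pdgf, Vegf and angiopoietin list 12 of 14 genes reached 1 CPM in each library. Apela, a peptide ligand of the apelin receptor, was at 139 ± 38.8 TPM (33.8, 46.5 and 55), and Angpt1, the ligand of Tek, at 73.7 ± 24.8 TPM (83.2, 133 and 155). Vegfa was at 11.8, 13.1 and 15.5 CPM. Tgfb2 was the highest of the Tgf-beta ligands at 68.1, 97.4 and 92.5 CPM, and Tgfb3 was at 30.9, 25.7 and 23.5 CPM. Kitl, the ligand of Kit, was at 141, 214 and 231 CPM, Epo, erythropoietin, at 18.3, 28.9 and 23.2 CPM, and Postn, a matricellular protein, at 466, 353 and 338 CPM. Of these, Apela, Angpt1, Vegfa, Tgfb2, Kitl and Epo were lowest in PE1, and Tgfb3 and Postn were highest there.

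Few Notch, Wnt, Hedgehog and Egf ligands reached these levels. Dlk1, an imprinted Notch-related protein, was at 589, 97.6 and 131 CPM and thus rested largely on PE1. Jag1, a Notch ligand, was at 4.99, 4.05 and 4.84 CPM. After Wnt2 the Wnt and R-spondin list fell to Rspo1 at 7.81, 3.65 and 5.04 CPM and Wnt5b at 4.9, 5.4 and 3.6 CPM. None of the 3 Hedgehog ligands reached 1 CPM in each library. Hbegf was the highest of the Egf family at 10.7, 7.22 and 8.41 CPM. Igf2, a growth factor of embryonic tissues, was at 47, 47 and 48.3 CPM, a level with little spread. The part of its large overlap with another gene in that level was not tested. Igf1 was at 58.6, 38.7 and 42.6 CPM.

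Mif, given above, led the chemokine list by mean TPM, followed by Cxcl12. Efna1 led the ephrin, Slit and netrin list. The highest semaphorins lay at like TPM, 16.1 for Sema3a, 13.9 for Sema3d and 13.6 for Sema3c. Cxcl12, the ligand of Cxcr4 and Ackr3, was at 80.5, 43.9 and 54.9 CPM. Efna1, an ephrin, was at 62.4, 58.6 and 58 CPM, and among semaphorins Sema3a was at 67.8, 83.2 and 66.6 CPM, Sema3d at 30.5, 39 and 46.1 CPM and Sema3c at 24.3, 31.8 and 37.7 CPM. Efna1 was nearly equal in the 3 libraries, and Sema3d and Sema3c were lowest in PE1.

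Of 183 receptor genes, 137 reached 1 CPM in each library, against 11892 of all 21849 protein-coding genes. In addition, 72 receptors reached 5 TPM and 2 had no count. A larger share of receptors than of ligands thus reached each level, and the median over all members was 3.99 TPM for receptors and 0.796 TPM for ligands. The highest receptor was at 279 ± 18.2 TPM, and 4 ligands exceeded it. This was F2r, the thrombin receptor, which was nearly equal in the 3 libraries at 301, 296 and 312 CPM. Ackr3, an atypical receptor that takes up Cxcl12, was at 166 ± 18.1 TPM (217, 162 and 166). Nrp1, a co-receptor for Vegf and semaphorins, was at 132 ± 31.1 TPM (327, 449 and 474), and Tek at 110.0 ± 33.4 TPM (118, 198 and 185). Ednrb, an endothelin receptor, was at 105 ± 22.9 TPM (121, 142 and 172), and Aplnr, the receptor of Apela, at 89.5 ± 21.4 TPM (85.9, 127 and 108).

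In the receptor families that bind Bmp, activin and Tgf-beta ligands, 13 of 16 genes reached 1 CPM in each library. Bmpr1a, a type 1 Bmp receptor, was at 59.6, 92.2 and 83.4 CPM, and Tgfbr1 at 71.7, 78.7 and 78.8 CPM. Acvr2b was at 27.4, 25.2 and 20.8 CPM, Acvr1 at 15.5, 21.7 and 18.7 CPM and Bmpr2, the type 2 Bmp receptor, at 20.4, 28.4 and 28.4 CPM. Bmpr1a and Tgfbr1 were at like TPM, 38.3 ± 9.98 TPM and 36 ± 3.85 TPM. Bmpr1a, Tgfbr1, Acvr1 and Bmpr2 were lowest in PE1, and Acvr2b was highest there.

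All 4 Fgf receptor kinases were detected. Fgfr2 was at 23.2, 33.3 and 31.8 CPM, Fgfr1 at 20.2, 23 and 19.6 CPM, Fgfr4 at 11, 8.69 and 8.48 CPM and Fgfr3 at 9.85, 6.31 and 5.35 CPM. Klb, a co-receptor for endocrine Fgf ligands, was at 18.8, 27.1 and 23.4 CPM, and Fgfrl1, a receptor without a kinase domain, at 15.4, 13.9 and 11.7 CPM. Per length, Fgfr2 at 8.82 ± 2.06 TPM and Fgfr4 at 8.11 ± 0.738 TPM did not differ beyond their spread. Kl was below 1 CPM in each library.

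Receptors of mesenchyme and vessels were higher. Pdgfra was at 107, 204 and 176 CPM, lowest in PE1, and Pdgfrb at 35, 42 and 29.2 CPM. Kdr, the main Vegf receptor of endothelium, was at 46.6, 44 and 45.3 CPM and was nearly equal across libraries. Igf2r, which takes up Igf2, was at 141, 240.2 and 188 CPM. Fzd7 led the Wnt receptors by TPM at 19.3, 35.1 and 26.3 CPM, and Notch2 the Notch receptors at 11.2, 16.9 and 12 CPM. Ptch1, a Hedgehog receptor that is also a target of the pathway, was at 23.9, 39.6 and 40.2 CPM, and Smo, its signal-transducing partner, at 24.5, 29 and 24.8 CPM. S1pr2, S1pr3 and Lpar1, receptors for lysophospholipids, were at 57.7 ± 5.46 TPM (145, 159 and 144), 54.3 ± 4.82 TPM (84.5, 82.8 and 69.7) and 57 ± 9.18 TPM (73.1, 90.5 and 74.5).

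**Figure D4:**
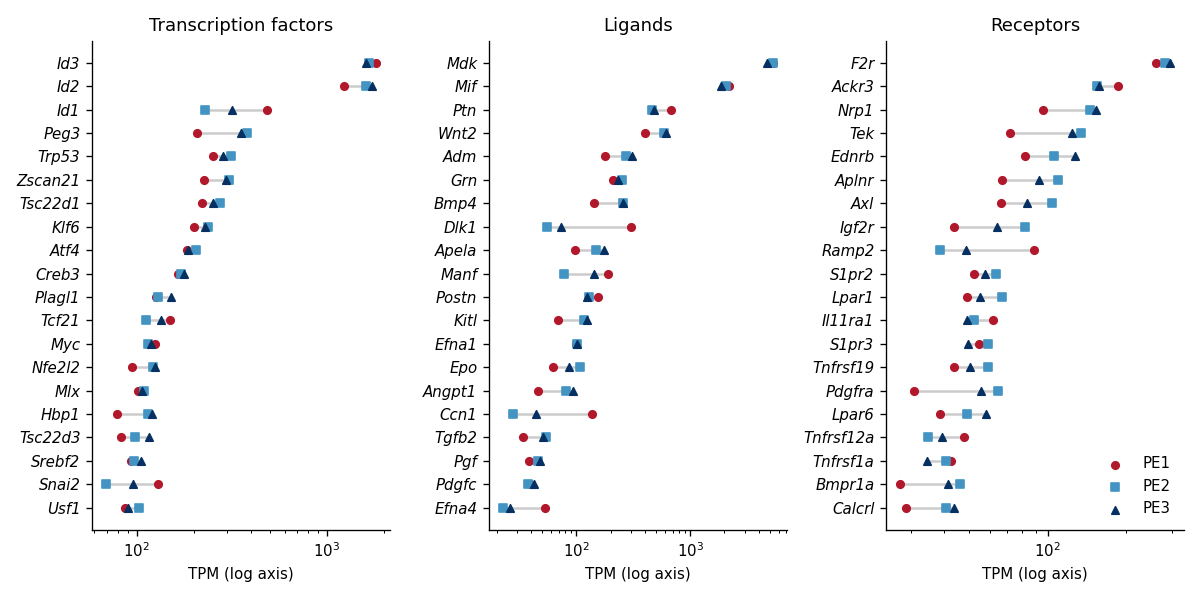
Levels in TPM (x axes, log scale) of the 20 highest transcription factors, ligands and receptors by mean TPM, with a point for each PE library and a grey line over their range. Id3 and Id2 lead the factors, Mdk and Mif the ligands and F2r the receptors, and PE1 is apart from PE2 and PE3 for Dlk1, Ccn1, Ramp2 and Pdgfra.

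Secreted antagonists and feedback genes of these pathways were also counted. Fstl1, a follistatin-like protein, was at 393, 473 and 413 CPM, and Twsg1, a modulator of Bmp ligands, at 109, 108 and 108 CPM, with a CV of 0.357%. Sfrp1, Sfrp5, Dkk1 and Dkk3, whose products antagonize or modulate Wnt signaling, were at 87.3 ± 11.8 CPM, 21.6 ± 0.153 CPM, 42.8 ± 2.08 CPM and 39.5 ± 2.76 CPM. Dusp6, a phosphatase induced by Erk downstream of Fgf, was at 107, 72 and 108 CPM. Twsg1 was among the 10 steadiest genes, and Sfrp5 had a CV of 0.707%.

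The list of retinoic acid genes took 0.0975%, 0.0589% and 0.0510% of the counts, and 9 of its 12 genes at 10 CPM or more were highest in PE1, against 36.2% of all 8594 genes at that level. Crabp2, a carrier of retinoic acid, was at 187, 226 and 197 CPM, while Crabp1 was at 143, 46.2 and 24.5 CPM. Aldh1a2, the enzyme that makes retinoic acid in mesothelium, was at 28.4, 9.24 and 10.3 CPM. Crabp1 and Aldh1a2 were highest in PE1, and Crabp2 was highest in PE2.

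Matrix and adhesion genes were led by Gpc3, a heparan sulfate proteoglycan, at 1958, 1747 and 1901 CPM, and by Sparc, a collagen-binding matrix protein, at 1895, 1629 and 1414 CPM. The collagen list took 0.180%, 0.198% and 0.140% of the counts, with Col3a1 at 615, 600.2 and 432 CPM, Col18a1, a basement membrane collagen, at 257, 467 and 311 CPM, and Col1a1 at 84.1, 50.6 and 22.9 CPM. Has2, the hyaluronan synthase of embryonic heart, was at 88.5, 212 and 227 CPM. Ctnna1, alpha-catenin, was at 435, 640.4 and 560.0 CPM, Itgb1, integrin beta 1, at 282, 329 and 286 CPM, and Cdh1, E-cadherin, at 31.9, 40.8 and 31.7 CPM. Col1a1 differed by 3.68-fold between its highest and lowest library and Col3a1 by 1.42-fold, both highest in PE1.

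Cytoskeletal genes took 2.30% to 2.40% of the counts, glycolytic genes 2.17%, 2.65% and 2.53%, translation factors 1.36% to 1.46% and cell cycle genes 1.35% to 1.49%. Pkm, pyruvate kinase, was at 2545, 3498 and 3046 CPM, and Slc2a1, a glucose transporter, at 618, 943 and 659 CPM. Cdk4, a kinase of the G1 phase, led the cell cycle list at 2576, 2714 and 2436 CPM, followed per length by Rrm2, a subunit of ribonucleotide reductase, at 866, 693 and 819 CPM, and Mcm5, a subunit of the replicative helicase, at 705, 964 and 807 CPM. Ribosomal protein genes took 1.46%, 1.14% and 1.12%, a share made uncertain by the repeated words of many of them. Their median level was 206 TPM in 6 genes under 5% repeated words and 59.6 TPM in 41 genes from 5% to 20%. It was 80.2 TPM in 27 genes from 20% to 40% and 32.7 TPM in 9 genes above that. The ranges of these groups overlapped widely. Rpl4, with 11.2% repeated words, was at 2487 ± 209 TPM (1566, 1643 and 1656).

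Imprinted and noncoding genes included some of the highest levels. H19, an imprinted noncoding RNA next to Igf2, was at 1014, 1189 and 1057 CPM and 1361 ± 176 TPM. Malat1, a nuclear noncoding RNA, was at 673, 514 and 953 CPM. Among other imprinted genes, Nnat was at 391, 187 and 226 CPM, Slc38a4, an amino acid transporter, at 432, 640.0 and 547 CPM, Ndn, necdin, at 552, 346 and 409.7 CPM, and Cdkn1c, an inhibitor of cyclin-dependent kinases, at 110.3, 79.1 and 85.3 CPM. Nnat, Ndn and Cdkn1c were highest in PE1, and H19 and Slc38a4 were lowest there. Transcripts from the inactive X and from the Y chromosome were present in each library. Xist was at 24.3, 59.9 and 53.6 CPM, and the Y-linked gene Ddx3y at 61, 67.8 and 66.1 CPM.

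The spread among the libraries was summarised for genes at 10 CPM or more, where the median CV was 15.1%. The edgeR common dispersion over genes at 1 CPM or more in each library was 0.0596, a biological coefficient of variation of 0.244. Without PE1 it was 0.0176, or 0.133, and the median CV was 7.61%. Without PE2 and without PE3 the dispersion was 0.0687 and 0.0828. PE1 thus set most of the spread. Of the 4161 genes at a mean of 50 CPM or more, 234 differed by at least 2-fold between the highest and the lowest library, and 207 of these were highest in PE1. Over all 4161 genes, 35.7% were highest in PE1.

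The 10 genes with the largest CV among these were all highest in PE1. Apoe, an apolipoprotein, was at 308, 23.6 and 33 CPM. Pfn1, profilin, an actin-binding protein of all cells, was at 952, 143 and 200.0 CPM. Fth1, ferritin heavy chain, was at 759.9, 123 and 183 CPM. They also included Rbp4, a plasma carrier of retinol, at 173, 26.9 and 28.4 CPM, Serpina6, a plasma steroid carrier, at 180.2, 31.6 and 35.9 CPM, Dut, which removes dUTP, at 143, 19 and 34.2 CPM, and Lsm4, a splicing component, at 316, 43 and 75.7 CPM. Cyc1, cytochrome c1, was at 273, 41.9 and 63.1 CPM, and Sdf2l1, an endoplasmic reticulum protein, at 133, 14.8 and 39.8 CPM. Dlk1 completes the 10. The genes were thus partly plasma protein genes and partly genes that nearly all cells express.

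The 10 steadiest genes were Nfs1, Nsfl1c, Twsg1, Pycr1, Csrp2, Map1lc3b, Tbl2, Msra, Cyp20a1 and Rpl3. Nfs1, which supplies sulfur for iron-sulfur clusters, was at 81.9, 81.8 and 81.8 CPM. Map1lc3b, an autophagy protein, was at 283, 285 and 286 CPM, and Csrp2, a LIM protein of smooth muscle, at 266, 264 and 263 CPM. The 3 libraries differed by at most 1.01-fold in each of these 3 genes.

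The genes that set PE1 apart shared features of sequence. Among 8594 genes at a mean of 10 CPM or more, with at least 1 CPM in each library and a known GC content, 470 (5.47%) were at least 2-fold higher in PE1 than in the mean of the others, and 40 (0.465%) were at least 2-fold lower. The 470 had a median GC content of 52.8% and a median exon length of 2936 bases, against 48.3% and 4630 bases over all 8594. The same genes were split into 5 equal groups by GC content. From the lowest to the highest GC, the median log2 ratio of PE1 to the mean of the others was -0.32, -0.19, -0.08, 0.01 and 0.17. By exon length it fell from 0.26 in the shortest group to -0.30 in the longest. PE1 thus held more of GC-rich and short genes and less of AT-rich and long ones.

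PE3 showed the opposite order by GC content, from 0.20 in the lowest group to -0.22 in the highest, and PE2 changed little, with 0.06 in the lowest group. By exon length PE2 rose from -0.17 to 0.18 and PE3 from -0.14 to 0.09. The share of genes at least 2-fold higher in PE1 was 11.5% in the highest GC group and 1.69% in the lowest. The gradients are of medians, and those genes of the lowest group went against the one by GC content. Whether the gradients set the differences of the gene lists was not tested.

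**Figure D5:**
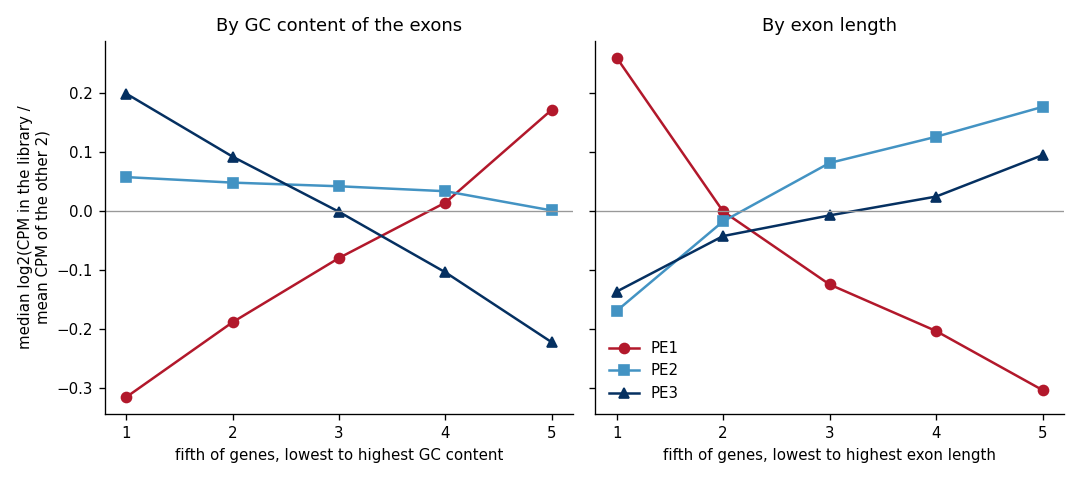
Median over genes of the log2 ratio of a library's CPM to the mean CPM of the other libraries (y axis), for 5 equal groups of genes ordered by GC content of the exons (left) or exon length (right). PE1 goes from -0.32 to 0.17 with GC content and from 0.26 to -0.30 with length, and PE2 and PE3 rise with length.

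The lists moved unequally in PE1, and they were not matched to other genes by GC content or exon length. Of 69 ribosomal protein genes at 10 CPM or more, 64 were higher in PE1 than in both others, with a median log2 ratio of 0.39, and of 21 hepatoblast markers 16 were, with a median of 0.52. None of 16 cardiomyocyte markers was, and 12 were lower in PE1 than in both others, with a median of -0.47. Of 19 glycolytic genes 15 were lower, with a median of -0.30. Over all 8594 genes 3110 were higher and 4203 lower, with a median of -0.08.

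Among the genes lowest in PE1 relative to the others, listed after their values were seen, heart muscle genes came first. Ttn, titin, was at 62.8, 161 and 227 CPM, with an exon length of 116825 bases. Actn2, the alpha-actinin of sarcomeres, was at 17.1, 33.9 and 61.7 CPM, and Myl3, a ventricular light chain, at 13.7, 25.4 and 45.9 CPM, with an exon length of 2044 bases. Fgf10 and Has2 were also among the 20 lowest. Among the 20 highest in PE1 relative to the others, Apoe came first, and the 20 included Msx2, a homeobox gene induced by Bmp, at 29.7, 4.52 and 1.78 CPM, and Hes6, a helix-loop-helix gene, at 32, 4.28 and 4.38 CPM. For Ttn, Actn2 and Myl3 PE3 was highest, whereas Msx2 was lowest there.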

How the data were processed

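The mRNA of 3 pools of dissected PE was analysed, and the small RNA and EE libraries were not used here. The authors deposited a table of whole-number counts per gene that had not been normalized, with no row that lacks a gene name. For these counts the paper describes RSEM on the mm10 transcriptome, while Trim Galore 0.4.3.1, STAR and featureCounts stand in the processing notes of the submitters, so the counter, and how it treated reads with several matches, is uncertain. The 3 columns of other samples in the table were not used.

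CPM were computed from column totals of 23054165 to 25814015 counts. TPM were computed here from the counts and the union of exons in GENCODE M21 (GRCm38). Of the 55228 symbols, 53569 matched directly, 137 by a synonym and 1522 not at all, the last holding 0.0239% to 0.0266% of counts. Words of 50 bases and GC content were read from the RefSeq copy of GRCm38. Dispersion was estimated with edgeR 4.0.16 and size factors with DESeq2 1.42.0 in R 4.3.3, and the scripts were tested on simulated data with known answers. A gene at 1 CPM or more in each library was counted as detected at that level. Intervals and limits for a count of 0 cover counting error only, and the spread among the samples may be technical in part.

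Genes were named by a rule: the 20 highest by mean TPM, the 25 highest factors, 20 highest ligands and 20 highest receptors, up to 5 members of each other list, the 10 highest and 10 lowest by CV at a mean of 50 CPM or more, and Wt1, Tcf21 and Tbx18. The text gives part of these, a few genes and sequences are not reported here, and genes outside the rule are said to have been chosen after their values were seen or are given as further members of a signaling family. The members and lists were chosen with earlier results of these data known. Alternatives were other totals, size factors, thresholds, gene lengths and leaving out each library.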

Additional observations from a re-analysis of the deposited data

How the results depend on the processing

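No paired analysis was possible because 1 group was described and no groups were compared. The 11 summary values were recomputed under 71 alternatives, of which 66 stayed within 1.5 times the count, dispersion or CV, or within 1 SD of the share. The rest moved with a threshold or with PE1. At 10 TPM in place of 5 TPM, 139 transcription factors and 45 receptors passed in each library, and at 2 TPM 117 receptors did. Leaving out 1 library in turn gave a common dispersion of 0.0176 to 0.0828 and a median CV of 7.61% to 16.7%, in each case lowest without PE1. The number of genes at 1 CPM or more in each library was 12934 to 12942 with a library left out. Of the named genes, the 20 highest kept 19 without any 1 library. Depth limits low genes: a level under about 0.130 CPM cannot be told from 0 in PE1. The cause of the differences between PE1 and the other libraries was not tested, and repeated sequence limits what can be said of the genes listed at 0 in the mitochondrial genome.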
